A study of Homo sapiens with 2 samples.

Results

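The 279 sites described here are ASH1 peaks that lay in the interior of the autosomes and were found with antibodies of both batches in K562 cells. They were selected on measured positions, as rows of the replicate 1 peak list on chromosomes 1 to 22 that overlapped a replicate 2 peak by at least 1 bp and had their midpoint more than 5 Mb from both ends of the hg19 chromosome. They are 279 of the 910 replicate 1 peaks, and 279 of the 663 replicate 1 peaks in the interior. Because 5 replicate 2 peaks each overlapped a pair of them, their partners were 274 of the 4646 replicate 2 peaks. The sites are set beside the 177 shared replicate 1 peaks whose midpoint lay within 5 Mb of an end, here the end zone.

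Positions came from chromatin immunoprecipitation followed by sequencing (ChIP-seq), which recovers DNA fragments cross-linked to a protein, in K562, a human chronic myelogenous leukaemia line. The labels give no treatment, and both samples are biological replicates of 1 group. The antibodies were rabbit polyclonals made in-house against the C-terminal end of ASH1, batch 1 for replicate 1 and batch 3 for replicate 2, so replicate and batch cannot be told apart. K562 is a single cell line with a rearranged genome, and a control library or cells without ASH1 were not analysed here. The title of the study names domains that carry both H3K36me3 and H3K9me3, histone marks that were not measured in the samples used here.

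ASH1 (gene ASH1L) is a trithorax-group protein with a SET domain, the catalytic fold of most lysine methyltransferases, and it methylates lysine 36 of histone H3. Trithorax-group proteins keep genes active through cell division and oppose the Polycomb group, which keeps genes silent. The outer zones of human chromosomes are mostly GC-rich and gene-dense, while interiors alternate between light Giemsa bands, which are gene-rich, and dark bands, which are gene-poor and rich in AT. The peaks were not assigned to genes, because no gene annotation of hg19 was used here, and no peak sequence is shown, because no hg19 genome was used.

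The lists differ in size and in their lowest score (50.03 in replicate 1 and 70.02 in replicate 2), and the sequencing depth behind them is unknown. The score is the authors' own value per peak, read as 10 times the negative log10 of a p-value. Of the 471 shared replicate 1 peaks, 456 lay on the autosomes, and 15 on other sequences were left out. With 1 sample per batch there is no estimate of variation between experiments, so medians are given with a distribution-free 95% interval that covers the spread between peaks only. No test between zones was run, since neighbouring peaks are not independent.

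The limit of 5 Mb fell inside a continuous distribution. The members nearest to it lay 5.09 Mb from an end in 1q44 (chromosome 1, 244161753 to 244162454), 5.20 Mb in 14q32.31 (chromosome 14, 102149652 to 102150236) and 5.21 Mb in 9q34.2 (chromosome 9, 135998859 to 136000080). They were 702, 585 and 1222 bp wide in replicate 1. The nearest peaks outside the limit lay 4.95 Mb from an end in 6q27, 4.94 Mb in 16q24.1 and 4.84 Mb in 9q34.2, with replicate 1 widths of 520, 1341 and 1286 bp. Widths inside and outside the limit thus overlapped. The smallest overlap among members was 357 bp, in 3p22.3, far above the limit of 1 bp, while the nearest unshared interior peak, in 18q21.33, missed a replicate 2 peak by 39 bp. That replicate 2 peak was itself the partner of a member. Among the 384 unshared interior peaks of replicate 1, 4 lay within 1 kb of a replicate 2 peak and 14 within 10 kb.

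Shared peaks were sparser in the interior, and sparser still with distance from the ends, as were all peaks of each list. Interior members numbered 10.5 per 100 Mb, against 80.5 per 100 Mb in the end zone, a density 7.67 times as high there. Over all peaks the end zone was 4.14 times as dense in replicate 1 (24.9 per 100 Mb in the interior and 103 in the end zone) and 6.26 times in replicate 2 (110 per 100 Mb in the interior and 690 in the end zone). The replicate 1 totals include the shared peaks, and its unshared peaks numbered 384 in 2661 Mb of interior and 50 in 220 Mb of end zone. Without the shared peaks the replicate 1 contrast was thus far weaker. In replicate 2, 2660 interior and 1344 end-zone peaks were unshared, and most of the contrast held among them. Within the interior the decline went on. Members 5 to 10 Mb from an end stood at 30.0 per 100 Mb (66 peaks), those at 10 to 20 Mb at 12.7 (56 peaks), those at 20 to 40 Mb at 9.23 (72 peaks) and those farther in at 6.96 (85 peaks). In the same bins all replicate 1 peaks stood at 42.7, 25.5, 23.7 and 22.3 per 100 Mb, and all replicate 2 peaks at 253, 132, 102 and 82.0. These too were sparser in each bin farther in. The replicate 1 totals include the members, which were 66 of 94, 56 of 112, 72 of 185 and 85 of 272 peaks in these bins. Over all autosomes the unshared replicate 1 peaks did not become sparser farther in, so the fall in the totals lay in the members. These unshared peaks include large groups seen in replicate 1 alone on chromosomes 5 and 6. Without those chromosomes the members were 58 of 83, 52 of 87, 63 of 146 and 65 of 157 peaks. Densities without them were not computed, so the flat course of the unshared peaks may rest on these groups. The median member lay 23.7 Mb from the nearest end. These densities use full chromosome length, which includes assembly gaps, and copy number in K562 was not measured.

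The share of replicate 1 peaks that recurred in replicate 2 also fell with distance. In the interior 42.1% of replicate 1 peaks were shared (95% Clopper-Pearson interval 38.3 to 45.9%), against 78.0% (72.0 to 83.2%) in the end zone. Counted from replicate 2 the shares were closer, at 9.34% (8.31 to 10.4%) of 2934 interior peaks and 11.5% (9.96 to 13.2%) of 1519 end-zone peaks. Among replicate 1 peaks the share was 70.2% (59.9 to 79.2%) at 5 to 10 Mb and 31.2% (25.8 to 37.1%) beyond 40 Mb. Chromosomes 5 and 6 hold large groups of peaks seen in replicate 1 alone. Without these chromosomes the shares in those distance bins were 69.9% and 41.4%. The gap between zones narrowed as the replicate 1 score rose. At scores of 70 or more, 162 of 229 interior peaks were shared (70.7%, 64.4 to 76.5%), against 93 of 102 in the end zone (91.2%, 83.9 to 95.9%). At scores of 100 or more, 83 of 90 interior peaks were shared (92.2%, 84.6 to 96.8%), against 46 of 49 in the end zone (93.9%, 83.1 to 98.7%), and these intervals overlapped. Overlap is what chose the members, so these shares are descriptions.

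**Figure D1:**
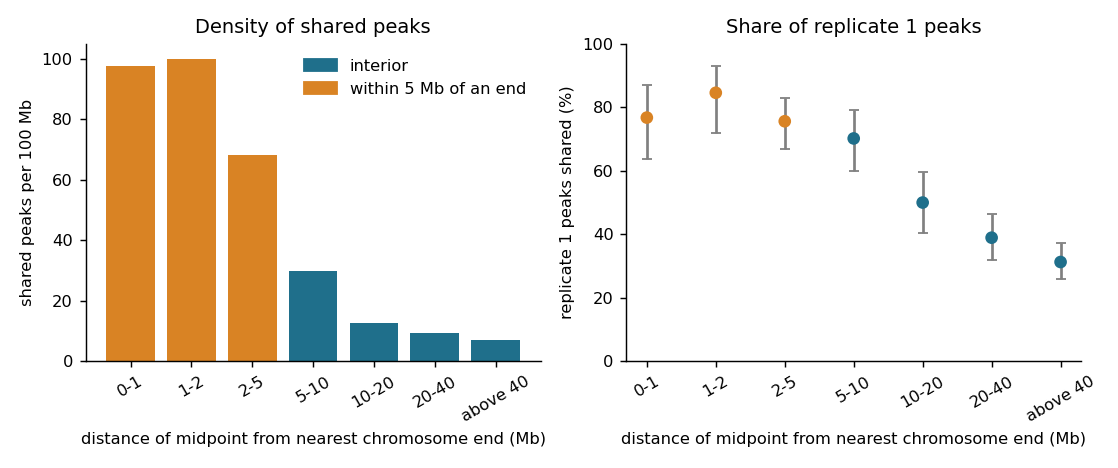
Left, shared peaks per 100 Mb of autosome by distance of the midpoint from the nearest end, in Mb, with interior bins in blue and end-zone bins in orange. Right, the share of replicate 1 peaks that were shared in each bin, in percent with 95% Clopper-Pearson intervals. Interior density falls from 30.0 to 6.96 per 100 Mb from the outermost to the innermost interior bin, and the share from 70.2% to 31.2%.

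Chromosome 19, known for its gene density and its clusters of KRAB zinc-finger genes, was the densest. It held 22 interior members in 49.1 Mb of interior, or 44.8 per 100 Mb, which is 4.27 times its share of interior length (2.71 to 6.33). Chromosome 22 followed with 10 members and 2.31 times (1.12 to 4.18), chromosome 16 with 18 members and 2.14 times (1.28 to 3.31), and chromosome 17 with 15 members and 2.01 times (1.14 to 3.26). These intervals lay above 1. All interior peaks leaned the same way: on chromosome 19 they stood at 3.35 times in replicate 1 and 2.97 times in replicate 2, and on chromosome 16 at 1.40 times in replicate 1 and 1.60 times in replicate 2. On chromosome 22 they stood at 1.07 times in replicate 1 and 2.24 times in replicate 2, and on chromosome 17 at 1.58 times in replicate 1 and 1.48 times in replicate 2. The interval lay below 1 for chromosome 3 (8 members, 0.41 times, 0.18 to 0.79), chromosome 13 (3 members, 0.27 times, 0.056 to 0.79) and chromosome 14 (4 members, 0.39 times, 0.11 to 0.99). For the other 15 autosomes it included 1. All interior peaks were few on those 3 as well, with 0.49, 0.31 and 0.54 times in replicate 1 and 0.46, 0.58 and 0.48 times in replicate 2 on chromosomes 3, 13 and 14. For all of these chromosomes except 22 in replicate 1, the values over all peaks lay inside the members' intervals. In replicate 1 this is partly built in, since the members are 279 of its 663 interior peaks. They were 18 of 28 on chromosome 16 and 10 of 11 on chromosome 22, where unshared replicate 1 peaks showed no excess over length. Whether these folds are particular to the shared peaks was not tested.

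Members and end-zone peaks were spread unevenly over the chromosomes. Chromosome 22 had 10 interior members and 0 shared peaks in its end zone, while chromosome 21 had 1 interior member and 8 in its end zone. Chromosomes 3 and 15 had 8 and 6 interior members and 0 in the end zone. Chromosome 6 held the most members, 25, but 107 interior replicate 1 peaks, so that 23.4% (15.7 to 32.5%) of these were shared. On chromosome 5 the share was 19.3% (11.4 to 29.4%), from 16 members. On chromosome 22 it was 90.9% (58.7 to 99.8%) and on chromosome 10, with 13 members, 65.0% (40.8 to 84.6%).

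**Figure D2:**
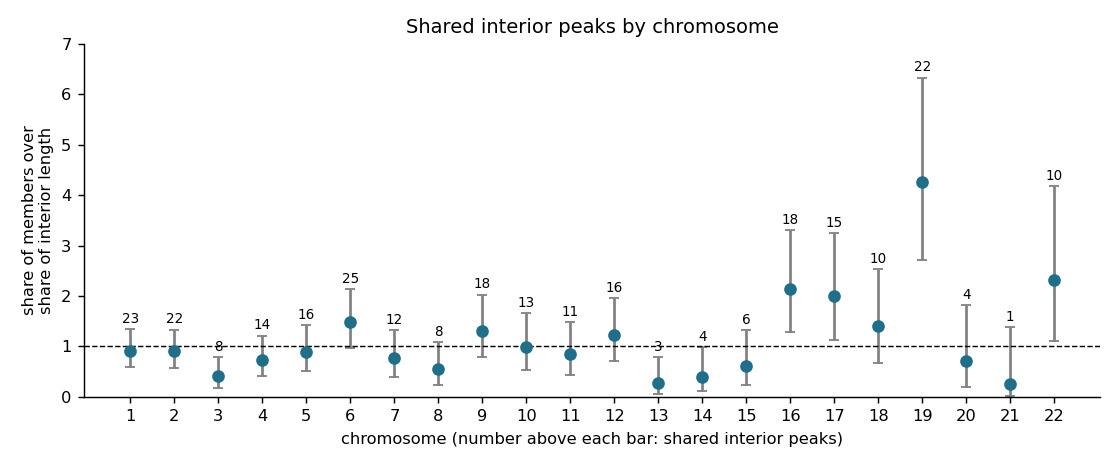
Share of the 279 shared interior peaks on each autosome divided by its share of interior length, with 95% Clopper-Pearson intervals of the member share; the number above each bar counts the members. Chromosome 19 is highest at 4.27 and chromosome 21, with 1 member, lowest at 0.25.

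Members were spread over 172 of the 769 bands that reach into the interior. Of these bands 113 held 1 member, 32 held 2 and 27 held 3 or more, and the 27 took in 102 members. Light-staining bands held 174 of the 279 members (62.4%, 56.4 to 68.1%) on 40.1% of interior length. Of the unshared interior peaks they held 50.3% in replicate 1 and 52.8% in replicate 2, both above the share of length. In replicate 1 these were 193 peaks, and many of them lay in a single light band, 6p21.1. That band held 60 replicate 1 peaks, of which 10 were members, and the share without it was not computed. In the end zone light-staining bands held 157 of 177 (88.7%, 83.1 to 93.0%) on 69.9% of the length, against 35 of the 50 unshared replicate 1 peaks and 86.5% of the unshared replicate 2 peaks there. The lightest of the stained classes, gpos25, held 17.2% of members (13.0 to 22.2%) on 6.97% of interior length, a ratio of 2.47, above the 1.56 of the unstained bands. Chromosome 19 bears on this ratio. Of the 48 members in gpos25, 7 lay in its band 19p13.2 and 5 in its band 19q13.41. The ratio without that chromosome was not computed. Unshared interior peaks lay in gpos25 at 9.64% in replicate 1 and 11.2% in replicate 2. The darkest class, gpos100, held 15 members (5.38%, 3.04 to 8.71%) on 17.3% of the length. Among unshared interior peaks, 22.1% of those of replicate 1 and 6.69% of those of replicate 2 lay in gpos100.

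The band with the most members was 6p21.1, with 10. Replicate 1 had 60 peaks in that band and replicate 2 had 19, so most replicate 1 peaks there had no partner. The members ran from 578 bp (chromosome 6, 40622647 to 40623224) to 4284 bp (chromosome 6, 43876418 to 43880701) in replicate 1. Their replicate 1 scores stayed between 53.91 and 135.37. Their replicate 2 scores ran from 71.2 (chromosome 6, 43654829 to 43656459) to 1111.3 (chromosome 6, 44010542 to 44013396), so sites of similar replicate 1 score differed widely in replicate 2.

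Band 19p13.2, on the short arm of chromosome 19, held 7 members out of 16 replicate 1 peaks. They lay from 7106537 to 12951343, with replicate 1 scores between 58.98 and 169.87 and replicate 2 scores between 125.81 and 834.15. The highest in both lists was the same site (chromosome 19, 11574991 to 11576392).

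Band 22q11.21, the region of the DiGeorge syndrome deletion and known for its low-copy repeats, held 6 members out of 7 replicate 1 peaks. The first, at chromosome 22, 18684805 to 18686421, was 1617 bp wide in replicate 1 and 532 bp in replicate 2, the narrowest partner among all members. It scored 192.72 in replicate 1 and 115.14 in replicate 2. The last, at chromosome 22, 21520018 to 21522704 and 21678660 to 21681321, were 2687 and 2662 bp wide in replicate 1 and 2606 and 2897 bp in replicate 2.

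Band 19q13.41, known for KRAB zinc-finger genes, held 5 members in 2.2 Mb, the densest of the bands with 5 or more at 2.27 per Mb. Their median replicate 1 score of 587.04 was far above the 76.8 of all members, while their median replicate 2 score was 472.03 against 367.92. Their midpoint offset, a median of 31.5 bp, was below the median of all members, 83 bp. In 16q23.2 all 4 replicate 1 peaks were shared, and their replicate 2 scores ran from 88.85 to 1025.71. In 17q25.1 all 4 were shared too, with a median replicate 2 score of 291. Among the 27 bands with 3 or more members, all interior replicate 1 peaks were shared in 10. Over the whole interior 42.1% of replicate 1 peaks were shared. A choice of bands by their members favours high sharing, so this count is a description.

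Peak width at members differed between the lists. The median was 1037 bp in replicate 1 (interval 969 to 1084, quartiles 816 and 1360) and 1431 bp in replicate 2 (1327 to 1584, quartiles 1115 and 1892). The replicate 2 peak was the wider at 251 of 279 members (90.0%, 85.8 to 93.2%), by a median ratio of 1.36 (1.30 to 1.42). In the end zone it was the wider at 171 of 177 (96.6%, 92.8 to 98.7%), by a median ratio of 1.42 (1.38 to 1.53). Across the 279 members the widths of the 2 lists had a Spearman's rho of 0.60, which is a description, since partners share position and local sequence.

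The medians of the zones were close. In replicate 1 the median was 1037 bp in the interior and 1000 bp (943 to 1064) in the end zone. In replicate 2 it was 1431 bp in the interior and 1595 bp (1471 to 1667) in the end zone. The intervals overlapped in both lists, and the sign of the difference was opposite in them. In replicate 1 the difference of 37 bp turned to -46 bp with the limit at 2 Mb and to -2.5 bp when scores of 70 or more were required. The interior held larger shares of wide and narrow peaks in replicate 1, and of narrow peaks in replicate 2. In replicate 1, 23 of 279 members (8.24%, 5.30 to 12.1%) were at least 2000 bp wide, against 6 of 177 (3.39%, 1.25 to 7.23%) in the end zone. Under 700 bp there were 37 members (13.3%, 9.51 to 17.8%) and 12 end-zone peaks (6.78%, 3.55 to 11.5%). In replicate 2 the shares under 1000 bp were 11.5% of members (7.98 to 15.8%) and 6.21% of end-zone peaks (3.14 to 10.8%). Wide peaks of replicate 2, at least 2000 bp, were about as common in both zones. They were 62 members (22.2%, 17.5 to 27.6%) and 35 end-zone peaks (19.8%, 14.2 to 26.4%). All of these intervals overlapped. Unshared interior peaks were narrower than members, with medians of 804 bp in replicate 1 and 1025.5 bp in replicate 2, and a wider peak is more likely to meet the overlap rule.

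**Figure D3:**
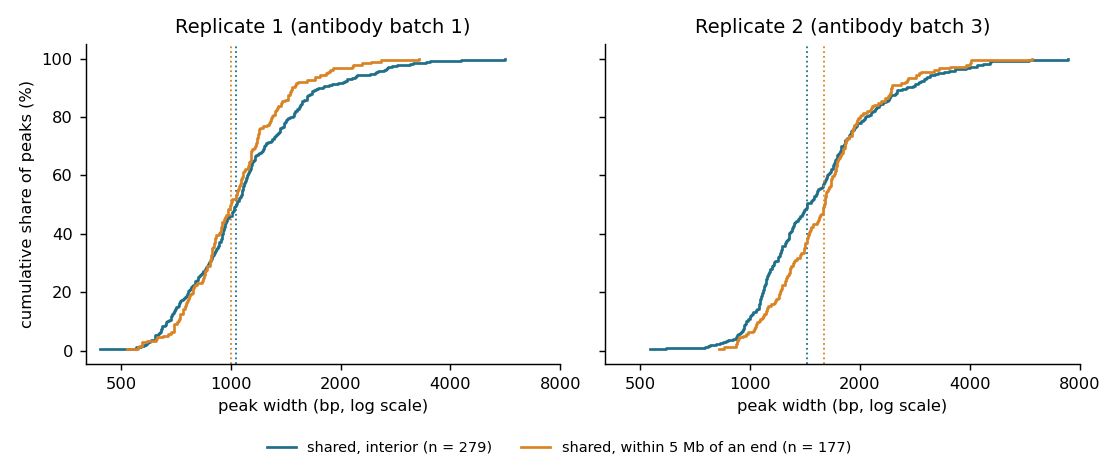
Cumulative share of peaks, in percent, by width in bp on a log axis, in replicate 1 (left) and replicate 2 (right), for the 279 interior members and the 177 shared peaks of the end zone; dotted lines mark medians. In replicate 1 the upper quartile is 1360 bp in the interior and 1195 bp in the end zone, and in replicate 2 the lower quartile is 1115 bp in the interior and 1259 bp in the end zone.

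The widest member lay in 1q42.11 (chromosome 1, 224199123 to 224204751), with 5629 bp in replicate 1 and 5824 bp in replicate 2, where the peak ran from 224198938 to 224204761. Its score was modest in replicate 1, 76.75, and 690.94 in replicate 2. The next widest in replicate 1 were in 6p21.1 (4284 bp), in 16p11.2 (3524 bp, chromosome 16, 32342618 to 32346141), in 2p11.2 (3424 bp, chromosome 2, 87586560 to 87589983) and in 12q13.12 (3163 bp, chromosome 12, 50271627 to 50274789). The 2p11.2 site, in the band that holds the immunoglobulin kappa genes, had the widest partner of all, 7450 bp. That partner ran from 87586565 to 87594014, well past the right edge of the replicate 1 peak. The 12q13.12 site was the only one of these 5 with a high score in both lists, 229.48 and 938.52.

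Wide members did not all score high. The 3 members of 13q31.3, a dark-staining band, were 2480, 3108 and 2035 bp wide in replicate 1, but scored only 67.9, 62.83 and 65.92 there and 267.06, 104.2 and 121.35 in replicate 2. The narrowest members scored low in replicate 1 too, with 1 exception. The exception was the narrowest of all, in 21p11.1 (chromosome 21, 11187846 to 11188284), in a centromere band, with 439 bp and a score of 118.71 in replicate 1 and 587 bp and 118.02 in replicate 2. The next 4, in 16p13.13, 2q35, 7p21.1 and 6p21.1, were 549 to 578 bp wide and scored 51.89 to 53.91 in replicate 1, against 115.93 to 537.72 in replicate 2. Over all members the rho of width with score was 0.44 in replicate 1 and 0.39 in replicate 2.

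At 28 members the replicate 1 peak was the wider. Their median score was 109 (74.3 to 193) in replicate 1 and 252 (119 to 329) in replicate 2, a median ratio of 1.67 against 4.09 for all members. Among them were 3 sites of 22q11.21, 3 of 6p21.1, 2 of 13q31.3 and 2 of 19q13.41. The lowest ratio of widths, 0.33, was that of the first 22q11.21 site named above, followed by the 4284 bp site of 6p21.1, whose partner was 2422 bp wide.

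Midpoints of partners lay close together. The median offset at members was 83 bp (71 to 98, quartiles 42.2 and 174) and 99.5 bp (83 to 136) in the end zone, with overlapping intervals. Offsets of at most 50 bp were found at 90 members (32.3%, 26.8 to 38.1%) and at 43 end-zone peaks (24.3%, 18.2 to 31.3%). Offsets above 500 bp were found at 20 members (7.17%, 4.43 to 10.9%) and 17 end-zone peaks (9.60%, 5.70 to 14.9%). The replicate 1 peak lay wholly inside its partner at 205 members (73.5%, 67.9 to 78.6%) and at 145 end-zone peaks (81.9%, 75.4 to 87.3%). The reverse, a partner wholly inside the replicate 1 peak, was seen at 15 members (5.38%, 3.04 to 8.71%) and 1 end-zone peak (0.56%, 0.014 to 3.11%). The partner's midpoint lay at the higher coordinate at 155 of 279 members (55.6%, 49.5 to 61.5%), with a median signed shift of 21.5 bp (0 to 36).

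Offset followed the width of the replicate 2 peak (rho 0.45 across members) more than that of the replicate 1 peak (rho 0.11). A wide partner leaves room for a large offset, so part of this relation is built in. The 93 members widest in replicate 1 (1171 to 5629 bp) had a median offset of 105 bp and 11.8% above 500 bp, the 93 in the middle (903 to 1166 bp) a median of 68.5 bp and 4.30%, and the 93 narrowest (439 to 899 bp) a median of 83 bp and 5.38%. The offset thus did not rise steadily with replicate 1 width. The largest offset was 2018 bp, at the 2p11.2 site with its 7450 bp partner. In 5q23.1 (chromosome 5, 117877586 to 117878283) a 698 bp replicate 1 peak sat near the right end of a 4572 bp partner, 1393 bp off centre. In 12p11.22 (chromosome 12, 29943807 to 29944495) a 689 bp peak sat near the left end of a 4007 bp partner, 1345 bp off centre.

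**Figure D4:**
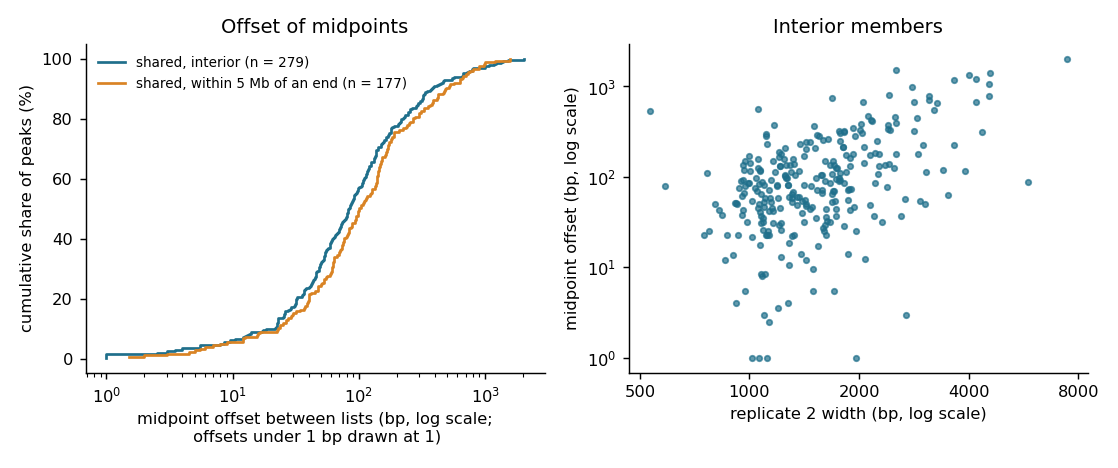
Left, cumulative share of peaks, in percent, by distance between the midpoints of partners in bp on a log axis, for interior members and end-zone peaks. Right, offset against replicate 2 width, both in bp on log axes, for the 279 members. Of the members 57.0% lie at 100 bp or less, and offsets over 1000 bp go with partners of at least 2530 bp.

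At 5 places a single replicate 2 peak spanned a pair of members. In 7p21.2 the partner (chromosome 7, 16436065 to 16440612) was 4548 bp wide and held replicate 1 peaks of 1965 and 1551 bp, 95 bp apart. In 12q24.22 it was 4177 bp wide (chromosome 12, 117563428 to 117567604) and held peaks of 1054 and 1499 bp, 603 bp apart. In 17q24.1 it was 3121 bp wide (chromosome 17, 63965112 to 63968232) over peaks of 1142 and 749 bp, 559 bp apart. The pairs in 9q33.3 and 18p11.22 lay 31 and 6 bp apart. In 18p11.22 the partner, with a score of 77.13, was 2530 bp wide while the pair together ran past it on both sides. The second largest offset, 1519 bp, came from that pair. These 10 members are not independent sites. In the end zone 4 replicate 1 peaks shared a partner in the same way.

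Members were far apart. The median gap to the nearest other shared peak was 904 kb (747 to 1318, quartiles 259 and 3817) for members and 161 kb (115 to 240, quartiles 59.5 and 378) for end-zone peaks, and the intervals did not overlap. When scores of 70 or more were required, which leaves fewer peaks, the medians were 2072 kb for members and 299 kb for end-zone peaks, and with the limit at 2 Mb 600.2 kb for members and 115 kb for end-zone peaks. Another shared peak lay within 100 kb of 44 members (15.8%, 11.7 to 20.6%) and of 68 end-zone peaks (38.4%, 31.2 to 46.0%). Within 1 Mb the shares were 50.9% of members (44.9 to 56.9%) and 88.1% of end-zone peaks (82.4 to 92.5%). The gap is the other face of the density given above, and was not corrected for it. More than 10 Mb from any other shared peak lay 30 members (10.8%) and 2 end-zone peaks. Across members the gap rose weakly with distance from the end (rho 0.30).

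The same held against the whole replicate 2 list. The nearest replicate 2 peak other than the partner lay a median of 112 kb (81.6 to 131) from members and 29.7 kb (22.7 to 36.3) from end-zone peaks. No other replicate 2 peak lay within 100 kb of 150 members (53.8%, 47.7 to 59.7%) and of 15 end-zone peaks (8.47%, 4.82 to 13.6%). The 150 solitary members had a median replicate 1 width of 962 bp (907 to 1042), and the 129 others 1101 bp (1032 to 1164). Median replicate 2 scores were 393 (350 to 462) at solitary members and 340 (287 to 374) at the others. Median replicate 1 scores were 76.9 (68.9 to 85.5) at solitary members and 75.9 (69.8 to 80.8) at the others. In all of these pairs the intervals overlapped.

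**Figure D5:**
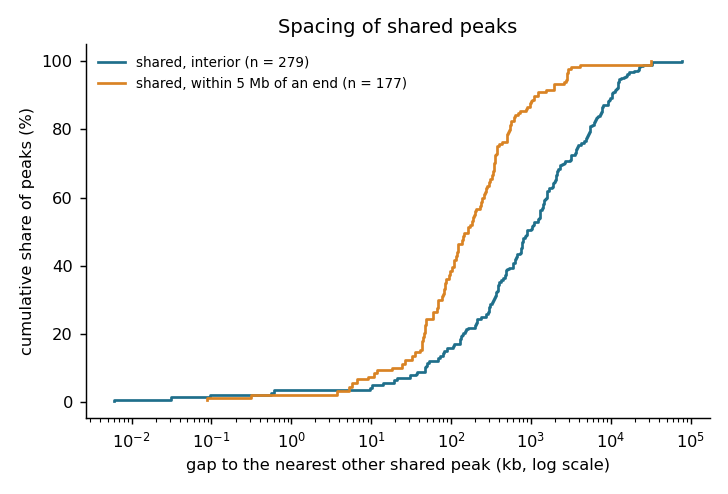
Cumulative share of peaks, in percent, by the gap to the nearest other shared peak in kb on a log axis, for the 279 interior members and the 177 shared peaks of the end zone. The interior curve lies to the right, with a median of 904 kb in the interior and 161 kb in the end zone.

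The member farthest from any other shared peak lay in 3q21.3 (chromosome 3, 128444370 to 128445134), with 78.0 Mb to the nearest one. It scored 354.16 in replicate 1 and 374.11 in replicate 2 and was 765 and 1082 bp wide there. Next were the 21p11.1 site at 32.9 Mb, 14q24.1 at 32.5 Mb (chromosome 14, 69657626 to 69658707, scores 190 and 415.29), 4q13.1 at 25.4 Mb (chromosome 4, 65733884 to 65734601, 74.74 and 834.84) and 12p13.31 at 23.0 Mb (chromosome 12, 6961320 to 6962043, 115.36 and 229.28). These sites were no wider than 1082 bp in replicate 1. Those in 21p11.1, 14q24.1 and 12p13.31 had 1 or 2 other replicate 2 peaks within 100 kb, so they are not among the solitary members above.

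Linked at 10 kb, members formed 6 pairs, of which 5 are those under a single partner. The other pair lay in 11p11.2 (chromosome 11, 44800766 to 44812276), with replicate 2 scores of 70.27 and 231.85. Linked at 100 kb, 44 members (15.8%) fell into 17 pairs and 3 larger chains, while 68 of 177 end-zone peaks fell into 23 pairs and 6 larger chains. At 1 Mb the largest interior chain had 9 members and the largest in the end zone 18.

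The 3 chains of 3 or more at 100 kb were unlike one another. In 19q13.41, 4 members lay in 145 kb, from 52407758 to 52553189, with no unshared peak of either list between them. They were 1081 to 1504 bp wide in replicate 1 and 1037 to 1428 bp in replicate 2, and scored 343.4 to 813.67 in replicate 1 and 328.89 to 500.73 in replicate 2. In 16q23.2, 3 members lay in 50.9 kb, from 81610074 to 81661013. The left and middle sites scored 178.79 and 176.09 in replicate 1 and 1025.71 and 912.39 in replicate 2, while the right one, from 81659445 on, scored 58.76 in replicate 1 and 88.85 in replicate 2. In 6p21.1, 3 members lay in 67.5 kb, from 43654829 to 43722326, with replicate 1 scores of 91.64, 96.44 and 56.86 against replicate 2 scores of 71.2, 320.27 and 328.57. The longest chain at 1 Mb also lay in 6p21.1, where 9 members spanned 2261 kb among 39 unshared replicate 1 peaks.

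Median scores of members and end-zone peaks were close. The median replicate 1 score was 76.8 (71.7 to 80.0) for members and 72.5 (67.2 to 79.9) in the end zone. The median replicate 2 score was 368 (337 to 393) for members and 355 (303 to 388) in the end zone. The median ratio of the replicate 2 to the replicate 1 score was 4.09 (3.58 to 4.36) for members and 4.17 (3.66 to 4.90) in the end zone. All 3 pairs of intervals overlapped. The difference in the ratio, -0.077, turned to 0.41 when scores of 70 or more were required and to 0.020 with 1 site kept per 10 kb. The threshold of 70 removed replicate 1 peaks only, so it bears on the ratio itself. The replicate 1 score was the higher at 19 members (6.81%, 4.15 to 10.4%) and 4 end-zone peaks (2.26%, 0.62 to 5.68%). Since the lists end at different scores and their depth is unknown, the ratio describes the lists and not the amount of ASH1.

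The ratio ranged from 0.46 to 16.6 among members. It was highest in 8q24.12 (chromosome 8, 122213513 to 122214173), where replicate 1 scored 58.49 and replicate 2 968.26. Sites in 6p21.31 (16.2), 10q22.3 (15.9), 2q31.2 (15.5) and 7p14.3 (14.5) followed, all with replicate 1 scores under 100 and replicate 2 scores above 800. It was lowest in 14q11.2 (chromosome 14, 23298457 to 23299571), where replicate 1 scored 230.41 and replicate 2 106.41. Next came a pair of 19q13.41 sites (0.53 and 0.62), the 22q11.21 site (0.60) and 2p23.3 (0.61). The 5 lowest were 1053 to 1617 bp wide in replicate 1, with offsets of 12 to 76 bp except for the 22q11.21 site, at 541.5 bp.

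At 25 members both scores were 200 or more, and these had a median width of 1166 bp (1081 to 1504) in replicate 1 and 1270 bp (1087 to 1682) in replicate 2. Their median score ratio was 1.21, a value that the choice by score bears on. The 5 with the highest mean rank of both scores lay in 18q21.1, 17q21.33, 4q25, 11q13.4 and 18q21.33. The scores of the 18q21.1 site were 3100 (replicate 1) and 2844.42 (replicate 2). The highest score in both lists was 3100, which 1 replicate 1 peak and 4 replicate 2 peaks shared, so that this value may be a ceiling and the score ratio of the site is not read. The 18q21.1 and 4q25 peaks were 1166 and 1087 bp wide in replicate 1 and 1252 and 843 bp in replicate 2. The 17q21.33 and 18q21.33 peaks were wider, with 2216 and 2625 bp in replicate 1 and 2524 and 2498 bp in replicate 2. Their offsets ran from 38 to 180 bp.

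Within 5 Mb of a centromere band lay 31 members (11.1%) on 15 chromosomes. Their median offset was 124.5 bp (80 to 253.5), against 80.25 bp (67 to 92) for the 248 others, and their median widths were 1139 bp (931 to 1433) in replicate 1 and 1521 bp (1146 to 2151) in replicate 2. The others had median widths of 1021 bp (962 to 1075) in replicate 1 and 1429.5 bp (1321 to 1576) in replicate 2. The intervals of the offset and of both widths overlapped. The median scores of the 31 were 85.4 (67.9 to 105) in replicate 1 and 355 (229 to 416) in replicate 2, with intervals that overlapped those of the others. Centromere bands themselves held 2 members, in 12p11.1 and 21p11.1, on 3.69% of interior length. Of the unshared interior peaks, 0 of replicate 1 and 94 of replicate 2 (3.53%) lay in these bands. Few replicate 1 peaks of any kind were thus found there. For the 31 members within 5 Mb, the shares of length and of all peaks are not given here. Repeat content was not tested, since no hg19 sequence was used here.

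The 15 members in the darkest bands lay on 7 chromosomes. Apart from the 3 of 13q31.3 they were 567 to 1262 bp wide in replicate 1. Replicate 2 scores were high at several of them, among them 973.28 in 4q28.3, 834.84 in 4q13.1 and 701.66 in 6q12, against replicate 1 scores of 115.52, 74.74 and 54.82. Taken with the next darkest class (26 members), their median gap to another shared peak was 4973 kb (2318 to 6952), against 792 kb (528 to 1280) for the 174 members in light bands. Their median widths were 865 bp (691 to 1521) in replicate 1 and 1380.5 bp (1114 to 1890) in replicate 2, with intervals that overlapped those of the light bands, 1070 bp (1008 to 1115) in replicate 1 and 1478.5 bp (1306 to 1594) in replicate 2.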

How the data were processed

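Per the submitters' processing notes, reads were aligned with BWA and peaks came from MACS; their versions and settings and any control are not stated in what was used here. The deposited files give 1 list of peaks per sample, with positions and a score that, from its form, is 10 times the negative log10 of a p-value. The notes name hg19 and GRCh38, and the files' coordinates were used as hg19. Depth is unknown.

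Each replicate 1 peak was paired with the replicate 2 peak that overlapped it, and no member overlapped more than 1. Widths, midpoints and gaps between peak edges were computed in bp, and positions are printed 1-based. Intervals of medians are 95% binomial order-statistic intervals, and those of shares are 95% Clopper-Pearson intervals; they cover the spread or counting error of peaks only. Chromosome lengths came from GenomeInfoDb 1.38.1 and bands from circlize 0.4.16. Procedures were checked on planted lists. Named sites are the extremes of width, offset, gap, score ratio and mean score rank (5 each), the 3 on either side of the 5 Mb limit and chains of 3 or more within 100 kb. Other sites and the bands named were chosen after their values were seen. The members and lists were chosen with earlier results of these data known. Nearby genes were planned and not analysed here, since the gene table at hand used GRCh38. Software comprised scipy 1.17.1, numpy 2.4.6, matplotlib 3.10.9, pandas 2.3.3 and Python 3.11.15. Alternatives moved the 5 Mb limit, the minimum overlap and the score threshold, thinned clustered sites, and left out 6p21.1 and 6p12.3 or chromosome 19.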

Additional observations from a re-analysis of the deposited data

How the results depend on the processing

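Of 70 medians and differences recomputed under 7 settings, 60 were counted as unchanged, 6 as moved further and 4 as reversed. Unchanged medians stayed within the interval of the value in the report. Differences have no interval of their own, and the unchanged ones kept their sign. All 4 reversals were differences, since only these could reverse. The number of members, 279 in the report, was 369 with the limit at 2 Mb and 213 with it at 10 Mb, and 257 to 277 under the 4 settings other than the score threshold. With the limit at 2 Mb the median gap was 600.2 kb in the interior and 115 kb in the end zone, a difference of 485 kb, and the difference in replicate 1 width (interior minus end zone) was -46 bp, against 37 bp in the report. A required score of 70 or more removed replicate 1 peaks only, since the lowest replicate 2 score was 70.02. Members then numbered 162, and their median gap was 2072 kb, against 299 kb in the end zone, a difference of 1773 kb. Their median width was then 1130.5 bp in replicate 1 and 1584.5 bp in replicate 2, the difference in replicate 1 width was -2.5 bp, and that in score ratio 0.41, against -0.077 in the report. With 1 site kept per 10 kb the difference in score ratio was 0.020. The cause was not tested. The gap was longer in the interior than in the end zone under all 7 settings. The removal of 6p21.1 and 6p12.3 and that of chromosome 19 were chosen after seeing the data, and no value reversed under either. No paired analysis was possible because the samples form 1 group without a comparison. Leaving out a replicate gave no value, since sharing needs both lists. Because the depth behind the lists is unknown, a site without a peak is not shown to lack ASH1, and copy number was not measured.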

Other observations

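Among the 19 loose clusters of 3 or more members linked within 1 Mb were several outside the bands described above. In 15q12 to 15q13.1 (chromosome 15, 27720234 to 28345779), part of the Prader-Willi and Angelman region and its flank, 3 members lay in 626 kb with 0 unshared replicate 1 peaks and 7 replicate 2 peaks in the span. They were 853 to 1022 bp wide in replicate 1 and scored 63.84 to 83.4 there. In 4p16.1 (chromosome 4, 6005131 to 7133260) 3 members lay in 1128 kb, with 8 replicate 2 peaks in the span and replicate 1 scores of 92.86 to 110.06. In 5p15.32 to 5p15.31 (chromosome 5, 5352545 to 7096940) 4 members lay in 1744 kb, with 15 replicate 2 peaks and 0 unshared replicate 1 peaks. The cluster in 6p21.1 stood apart by its 39 unshared replicate 1 peaks, while none of the other 18 clusters held more than 2.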
